A study of Mus musculus with 16 samples.

Results

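The data set described here is a group of 10 genes in the hearts of mouse embryos that lack the chromatin remodeller CHD7 in mesoderm: *Lin7a*, *Slc52a3*, *Mb*, *Gpr22*, *Fndc3c1*, *Dach1*, *Calcr*, *Cpn1*, *Plac8* and *Mr1*. They were chosen by their difference between mutant and control hearts, as genes that stood clearly lower or higher in the mutants and that had no known place in the Semaphorin, Slit-Robo or calcium pathways examined in the study. The 10 genes are 10 of 19937 genes that had a probe set naming that gene alone, and each of the 10 had a single such probe set among the 34760 of the array. The choice set no numerical limit, and the smallest difference among the 10 genes at E11.5 was that of *Dach1*, with a log2 difference of -0.67. Since this difference made the choice, the values of mutant against control hearts are given below as a description without a test, and tests were kept for measures that the choice did not use.

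Each array of the series was hybridised with RNA of 1 whole heart, dissected from a C57BL/6 embryo at E11.5 or E13.5 (E, embryonic day). There were 4 mutant hearts (*Chd7fl/fl;Mesp1-Cre*) and 4 control hearts at each stage, 16 in all. In the mutants Cre recombinase is driven by the *Mesp1* promoter, which is active in the early anterior mesoderm that forms most of the heart, so that *Chd7* is removed from myocardium and endocardium but not from cells of other origin, such as the neural crest. The controls are labelled WT. The paper describes them as *Chd7+/+;Mesp1-Cre*, but the cross named in the labels, of *Chd7fl/+;Mesp1-Cre* with *Chd7fl/fl* animals, cannot give *Chd7+/+* embryos, so whether the controls carry Cre or a floxed allele is not settled here. Expression is given as log2 of the RMA signal, in which a difference of 1 is a doubling.

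CHD7 is an ATP-dependent remodeller of nucleosomes that binds at enhancers and promoters, and mutations of its gene in humans cause CHARGE syndrome, in which heart defects are frequent. The 10 genes were not picked from 1 pathway. Myoglobin and the orphan receptor GPR22 are products of cardiac muscle, LIN7A is a scaffold of polarised membranes, SLC52A3 brings riboflavin into cells, DACH1 is a transcriptional cofactor and CALCR is a hormone receptor, while CPN1, PLAC8 and MR1 are best known from plasma, blood cells and antigen presentation.

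*Chd7* itself was read from its probe set with the highest mean. In the mutant hearts it lay at 9.16 to 9.73 in log2 expression against 10.64 to 10.89 in the controls of E11.5. At E13.5 it lay at 8.88 to 9.07 in mutants against 9.83 to 10.30 in controls. Cardiomyocyte genes were high in every heart, with a log2 of their summed level between 15.45 and 15.65 in mutants and 15.49 and 15.55 in controls at E11.5. Judged by Y-linked genes, 4 of 4 controls and 2 of 4 mutants were male at E11.5, and 2 of 4 controls and 1 of 4 mutants at E13.5. Mutant replicates 3 and 4 at E11.5 and control replicate 1 at E13.5 stood apart, with 27, 38 and 21 genes at more than 1 log2 unit above all other hearts of their stage, against 0 to 5 in each of the others. A whole heart holds several cell types, and fewer cells of a type cannot be told apart from less RNA per cell in these data.

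The upstream sequences of the genes were compared as letters only. RefSeq promoter sequence on GRCm38 was at hand for 9 of them, with 14 start sites between them, and the 250 bases before each start were searched on both strands for 5 motifs. These were the GATA factor motif, written GATAAG, the E-box in its general form CANNTG and its special form CACGTG (each CACGTG is also a CANNTG), the TATA box motif TATAAA, and the core letters of the hypoxia response element, GCGTG. The GATA factor motif, the special E-box and the hypoxia motif were present in none of the 14 windows, whereas 6.55%, 6.02% and 28.2% of 32851 windows of all genes held them. CANNTG was found in 11 of the 14 windows and in 66.2% of all windows, and it was lacking in the window of *Dach1* and in 1 window each of *Calcr* and *Plac8*. TATAAA was present for *Gpr22* alone, and in 12.4% of all windows. The windows of *Mb* and *Gpr22*, the 2 genes of cardiac muscle, carry these motifs in capitals here, on the minus strand of GRCm38 at chr15:77022728-77022977 (the last of 3 listed starts of *Mb*) and chr12:31713884-31714133.
Mb: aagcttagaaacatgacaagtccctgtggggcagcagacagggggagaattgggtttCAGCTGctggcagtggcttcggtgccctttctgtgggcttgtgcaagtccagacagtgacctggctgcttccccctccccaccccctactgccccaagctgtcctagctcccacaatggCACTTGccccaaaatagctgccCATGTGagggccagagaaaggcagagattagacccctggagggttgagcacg
Gpr22: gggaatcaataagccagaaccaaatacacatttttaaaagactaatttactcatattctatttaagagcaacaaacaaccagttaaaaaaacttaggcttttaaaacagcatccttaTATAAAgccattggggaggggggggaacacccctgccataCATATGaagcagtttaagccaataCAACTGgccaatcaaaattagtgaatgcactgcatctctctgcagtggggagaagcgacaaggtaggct
The *Mb* window holds CANNTG 3 times, and the *Gpr22* window holds it 2 times beside its TATAAA.

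Base composition differed widely among the genes. The CpG count of a window ran from 0 for *Mr1* to 24 at 1 of the 2 starts of *Calcr*, with a median of 6 over all windows. These extremes are shown with each CG in capitals, at chr6:3763624-3763873 and chr1:155146815-155147064, both on the minus strand.
Calcr: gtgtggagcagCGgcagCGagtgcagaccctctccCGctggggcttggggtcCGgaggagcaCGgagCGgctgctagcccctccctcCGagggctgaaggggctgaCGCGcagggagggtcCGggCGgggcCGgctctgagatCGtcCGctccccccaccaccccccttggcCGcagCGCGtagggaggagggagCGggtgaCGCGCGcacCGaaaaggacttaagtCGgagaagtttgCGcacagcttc
Mr1: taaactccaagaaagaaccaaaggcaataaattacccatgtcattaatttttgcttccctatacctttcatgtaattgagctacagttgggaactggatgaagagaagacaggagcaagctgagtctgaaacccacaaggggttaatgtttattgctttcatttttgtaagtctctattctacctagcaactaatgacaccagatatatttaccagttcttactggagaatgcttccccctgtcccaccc
The *Calcr* gene was lower and *Mr1* higher in mutant hearts, and they were 70.8% and 39.6% G and C in these windows. The other start of *Calcr* had 2 CpG and 46.0% G and C. Other genes of the group lay between them on both sides of the change: a *Lin7a* window held 19 CpG and that of *Gpr22* held 1, and both genes were lower in mutants.

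Comparison of mutant with control hearts at E11.5 set all 10 genes apart, with 7 wholly below and 3 wholly above the controls. Over all probe sets, 1.74% were wholly below and 1.72% wholly above. By the thresholds of the study (log2 difference over 0.5 in size and adjusted p under 0.05 in limma), 6 of the 10 genes were lower and 3 higher, *Calcr* being the exception, beside 0.196% and 0.0777% of all probe sets. At E13.5 the hearts were apart for 9 genes, 6 below and 3 above (1.85% and 1.71% of all probe sets), with *Slc52a3* overlapping. *Calcr* alone was lower and *Cpn1* alone higher by those thresholds at E13.5, beside 0.0288% and 0.00863% of all probe sets. These counts follow from the way the genes were chosen. From these same arrays, the paper already lists *Lin7a*, *Slc52a3*, *Mb*, *Gpr22*, *Fndc3c1*, *Dach1*, *Cpn1* and *Plac8* among its changed genes at E11.5. It lists *Calcr* and *Cpn1* at E13.5, while *Mr1* is not in its printed list after multiple testing correction. The controls of the 2 stages are different hearts.

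**Figure D1:**
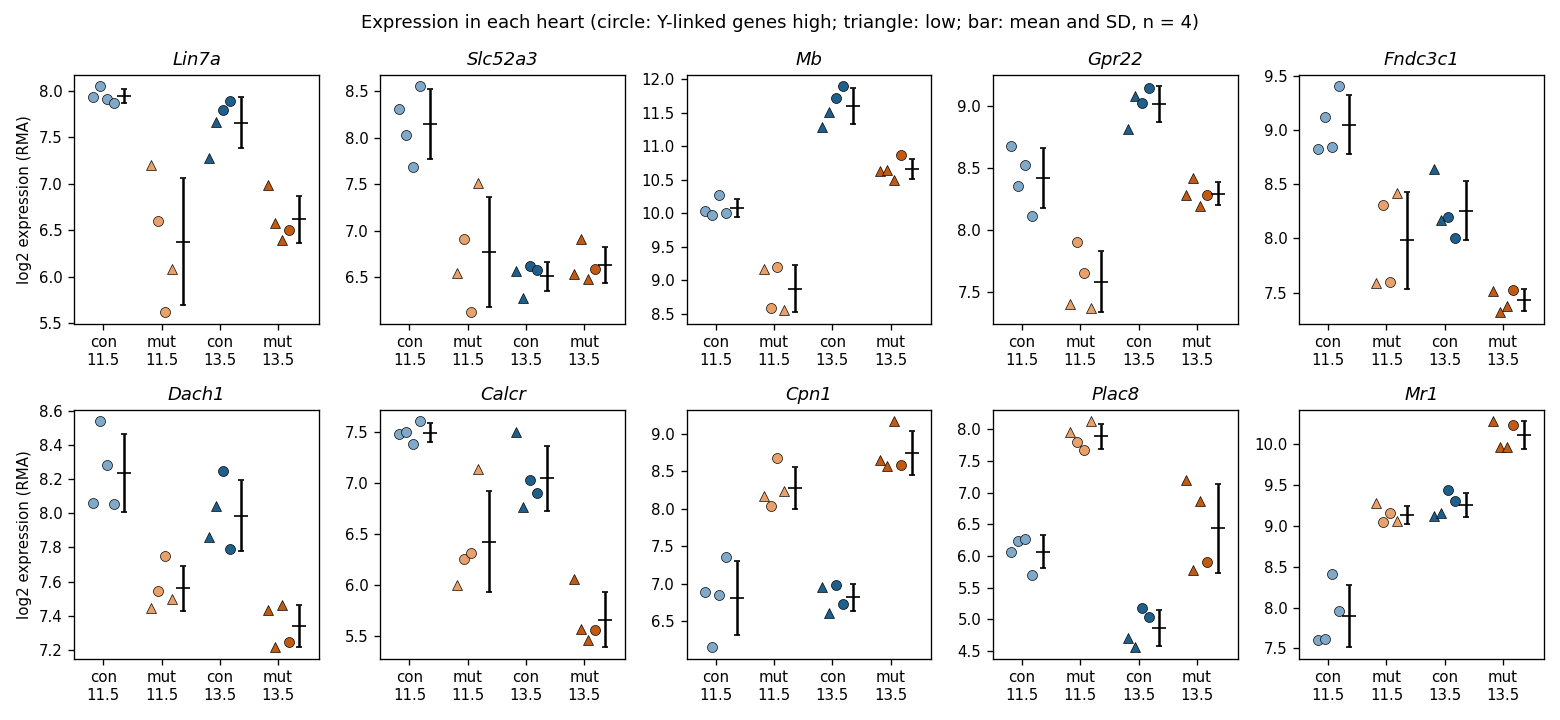
Log2 expression (y axis) of the 10 genes in each of the 16 hearts, by group (x axis; con, control; mut, mutant; with the embryonic day). Each point is 1 heart, circles are hearts with high and triangles with low Y-linked expression, and bars give the mean and SD of 4 hearts. Mutant points lie wholly below the controls for 7 genes and wholly above for 3 at E11.5, and only Slc52a3 overlaps at E13.5.

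*Mb* encodes myoglobin, which binds oxygen in heart and skeletal muscle. Its log2 expression at E11.5 was 9.17, 8.59, 9.20 and 8.55 in the mutant hearts and 10.04, 9.98, 10.27 and 10.01 in the controls. At E13.5 it was 10.63, 10.65, 10.50 and 10.87 in the mutants and 11.29, 11.51, 11.72 and 11.90 in the controls. None of the 4 groups overlapped another in this order: highest in E13.5 controls, then E13.5 mutants, E11.5 controls and E11.5 mutants. The log2 difference of mutant minus control was -1.20 (SE 0.17) at E11.5 and -0.94 (SE 0.17) at E13.5, so that mutants held 43.7% and 52.1% of the control level. In the cardiomyocyte list no gene of 6 passed the thresholds between genotypes at either stage, and the median log2 difference was 0.05 and -0.03. The part of cardiomyocyte number or maturity in the values of *Mb* was not tested.

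*Gpr22* encodes an orphan G-protein coupled receptor found in heart and brain. In the mutants its log2 expression was 7.40, 7.90, 7.65 and 7.37 at E11.5, below the 8.67, 8.36, 8.53 and 8.11 of the controls. The E13.5 values were 8.28, 8.42, 8.19 and 8.28 in mutants and 8.82, 9.08, 9.02 and 9.15 in controls. The mutants of E13.5 had reached the range of the E11.5 controls, and these 2 groups overlapped. Log2 differences between genotypes were close at the 2 stages, at -0.84 and -0.72 (SE 0.14 for both). *Gpr22* lies within the larger gene *Cog5* on chromosome 12, which gave log2 differences of -0.05 and 0.05.

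*Lin7a* encodes a small PDZ-domain protein that, with CASK and MINT proteins, holds receptors and channels at polarised membranes and synapses. The control hearts of E11.5 were almost uniform in log2 expression, at 7.93, 8.05, 7.91 and 7.87, while the mutants were spread over 7.20, 6.59, 5.61 and 6.08. At E13.5 the controls were at 7.27, 7.66, 7.80 and 7.89 and the mutants at 6.98, 6.57, 6.40 and 6.51. The SD of the E11.5 mutants, 0.68, was well above the 0.08 of their controls. Mutant minus control was -1.57 (SE 0.26) at E11.5, the lowest log2 difference in the group at that stage, and -1.04 (SE 0.26) at E13.5, which are 33.8% and 48.5% of the control level. Replicates 3 and 4, the lowest mutants at E11.5, were among the hearts that stood apart. Without the 3 such hearts the E11.5 log2 difference was -1.04 (SE 0.18).

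*Calcr* encodes the calcitonin receptor, which binds amylin instead when joined by RAMP proteins. At E11.5 the controls had log2 values of 7.48, 7.50, 7.38 and 7.61, and the mutants 6.00, 6.26, 6.31 and 7.13. Mutant replicate 4 was the nearest to the controls, and without the 3 hearts that stood apart the log2 difference moved from -1.07 (SE 0.22) to -1.36 (SE 0.16). At E13.5 the values were 6.05, 5.56, 5.46 and 5.56 in mutants against 7.50, 6.76, 7.02 and 6.90 in controls, a log2 difference of -1.39 (SE 0.22) and 38.2% of the control level. *Calcr* was the gene of the lower set whose log2 difference was the larger at E13.5. The microRNA genes *Mir653* and *Mir489* lie inside it, with log2 differences of -0.04 and 0.08 at E11.5.

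*Fndc3c1* is an X-linked gene for a fibronectin type III domain protein. Its log2 expression at E11.5 was 7.59, 8.31, 7.60 and 8.42 in mutants and 8.82, 9.12, 8.84 and 9.41 in controls. Mutant values fell into a lower and a higher pair that did not follow sex, since each pair held 1 male heart. At E13.5 the mutants were narrow, at 7.51, 7.32, 7.37 and 7.52, below controls of 8.64, 8.17, 8.20 and 8.01. The log2 difference was -1.07 (SE 0.20) and -0.82 (SE 0.20), and at E13.5 it was -0.58 in male hearts (1 mutant, 2 controls) and -1.01 in female hearts (3 mutants, 2 controls). Its neighbour *Fnd3c2* gave log2 differences of -0.01 and -0.02.

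*Dach1*, a nuclear cofactor that works with EYA proteins in transcription, had the smallest difference of the group at E11.5. Mutant hearts at E11.5 were at 7.45, 7.55, 7.75 and 7.50 and controls at 8.06, 8.54, 8.28 and 8.06 on the log2 scale. At E13.5 the mutants were at 7.44, 7.22, 7.46 and 7.25 and the controls at 7.86, 8.04, 8.25 and 7.79. Both mutant groups lay below both control groups, while the stages overlapped within each genotype. The log2 difference of -0.67 at E11.5 and -0.65 at E13.5 (SE 0.13 for both) left 62.7% and 63.9% of the control level.

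*Slc52a3*, a transporter that takes up riboflavin (vitamin B2), was the only gene of the group whose mutant and control hearts overlapped at a stage. At E11.5 the controls had log2 values of 8.31, 8.03, 7.69 and 8.55, and the mutants 6.54, 6.91, 6.12 and 7.52. At E13.5 both genotypes were low and overlapped, with 6.53, 6.91, 6.48 and 6.59 in mutants and 6.57, 6.28, 6.62 and 6.58 in controls. Mutants of E11.5 overlapped the hearts of both genotypes at E13.5, and the E11.5 controls alone stood above. The log2 difference was -1.37 (SE 0.24) at E11.5 and 0.12 (SE 0.24) at E13.5. Among marker lists of other cells, the log2 of the summed level of 6 erythroid genes was 12.76 to 13.54 in mutants and 12.89 to 14.11 in controls at E11.5, and 12.30 to 12.88 in mutants and 12.32 to 13.68 in controls at E13.5, so that the genotypes overlapped at both stages. The median log2 difference of the list was -0.59 and -0.19. Heart by heart, in the order of the *Slc52a3* values above, the sum at E11.5 was 13.84, 12.89, 13.47 and 14.11 in controls. It was 12.76, 13.54, 12.90 and 13.09 in the mutants of that stage. At E13.5 it was 12.30, 12.30, 12.88 and 12.71 in mutants and 13.68, 12.98, 12.32 and 12.88 in controls. Mean log2 values follow for E11.5 controls, E11.5 mutants, E13.5 controls and E13.5 mutants. *Hemgn* had 10.86, 9.26, 6.73 and 6.66, and *Klf1* 9.51, 8.90, 7.61 and 7.60. *Epor* had 9.34, 8.62, 8.04 and 7.91, and *Gata1* 9.01, 8.43, 7.56 and 7.32. *Slc52a3* had 8.14, 6.77, 6.51 and 6.63 in the same order. Like *Slc52a3*, each had its highest mean in E11.5 controls and lower means in both E13.5 groups. The E11.5 mutant mean of *Slc52a3* was near its E13.5 means, while those of *Hemgn*, *Klf1*, *Epor* and *Gata1* lay further above theirs. *Slc4a1* (12.26, 11.81, 11.86 and 11.29) and *Alas2* (11.79, 11.55, 11.76 and 11.44) were also highest in E11.5 controls but changed less between the stages. No gene of the list passed the thresholds, and its part in the values of *Slc52a3* was not tested.

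*Cpn1* encodes the catalytic subunit of carboxypeptidase N, a plasma enzyme of hepatic origin that trims kinins and complement anaphylatoxins. Log2 expression in mutants was 8.17, 8.04, 8.68 and 8.23 at the earlier stage and 8.65, 8.58, 9.17 and 8.58 at the later. The controls were at 6.90, 6.16, 6.85 and 7.35, and at 6.96, 6.61, 6.98 and 6.73. Mutants of both stages lay above every control, with differences of 1.47 and 1.93 (SE 0.22 for both) on the log2 scale, or 2.77-fold and 3.80-fold. Of the liver markers, no gene of 9 measured passed the thresholds, 4 of them (*Afp*, *Ttr*, *Serpina1a* and *Fgb*) had a mean below percentile 40 of all probe sets, and the log2 of the summed level of the 9 was 9.44 to 9.86 in mutants and 9.39 to 9.68 in controls at E11.5, and 9.78 to 10.20 and 9.60 to 10.44 at E13.5. The median log2 difference of the liver list was 0.10 and 0.15, and its part in the values of *Cpn1* was not tested.

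*Plac8* encodes a small cysteine-rich protein first described in placenta and found in myeloid and lymphoid cells. At E11.5 the mutant hearts were at 7.95, 7.81, 7.67 and 8.14 in log2 expression and the controls at 6.06, 6.25, 6.27 and 5.70. This was the widest log2 difference of the group at that stage, 1.82 (SE 0.27) or 3.53-fold. At E13.5 the mutants split into a high pair (7.20 and 6.86, replicates 1 and 3) and a lower pair (5.78 and 5.90, replicates 2 and 4), above controls of 4.71, 4.56, 5.17 and 5.03. The log2 difference of 1.57 (SE 0.27) was 1.98 in female hearts (3 mutants, 2 controls) and 0.80 in male hearts (1 mutant, 2 controls). The lower pair held the only male mutant, replicate 4, and a female heart, replicate 2, that was lower still, so the pairs did not follow sex. The high pair also carried the highest summed levels of 5 marker lists among the E13.5 mutants. It did not do so for the cardiomyocyte, liver, lymphocyte, erythroid, skeletal muscle, endothelial and nerve lists. For replicates 1, 2, 3 and 4 the log2 of the sum was 9.39, 9.27, 10.18 and 9.10 for neutrophil and granulocyte genes, 12.09, 11.80, 12.45 and 11.90 for macrophage genes, and 13.45, 12.96, 13.88 and 12.89 for epicardial genes. It was 10.68, 10.26, 10.59 and 10.13 for lung and foregut genes, and 8.12, 7.85, 7.89 and 7.84 for the 2 measured placental genes. Controls at E13.5 lay between 9.03 and 9.20 for the neutrophil list, 11.67 and 12.06 for the macrophage list and 12.76 and 13.06 for the epicardial list, and spanned the mutants for the lung (9.96 to 10.69) and placental lists (7.54 to 8.60). At E11.5, where all mutants were high in *Plac8*, mutants and controls overlapped for the neutrophil, macrophage and epicardial lists, while the lymphocyte list was lower in every mutant (8.76 to 8.86) than in any control (9.01 to 9.29), opposite to *Plac8*. Neutrophil markers *S100a8*, *S100a9*, *Elane*, *Ctsg* and *Ngp* had means below percentile 40. So did 5 of the 7 measured lymphocyte markers (*Cd3g*, *Cd79a*, *Ptprc*, *Il7r* and *Rag1*). The largest log2 difference of the lymphocyte list at E11.5 was that of *Cd3e*, at -0.47 (adjusted p = 0.350 in limma). No gene of these lists passed the thresholds at either stage, and their part in the values of *Plac8* was not tested.

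*Mr1* encodes an MHC class I-like molecule that presents metabolites of riboflavin synthesis to T cells. The mutants had log2 values of 9.27, 9.04, 9.16 and 9.05 at E11.5, above controls of 7.61, 7.61, 8.41 and 7.96. At E13.5 the values were 10.28, 9.96, 9.96 and 10.23 in mutants and 9.11, 9.16, 9.43 and 9.30 in controls. The E11.5 mutants overlapped the E13.5 controls and were separate from the other groups. The log2 difference was 1.23 (SE 0.16) at E11.5 and 0.86 (SE 0.16) at E13.5, which are 2.35-fold and 1.81-fold. The spread of the controls at E11.5 (SD 0.38) was wider than that of the mutants (SD 0.11), the reverse of *Lin7a*.

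**Figure D2:**
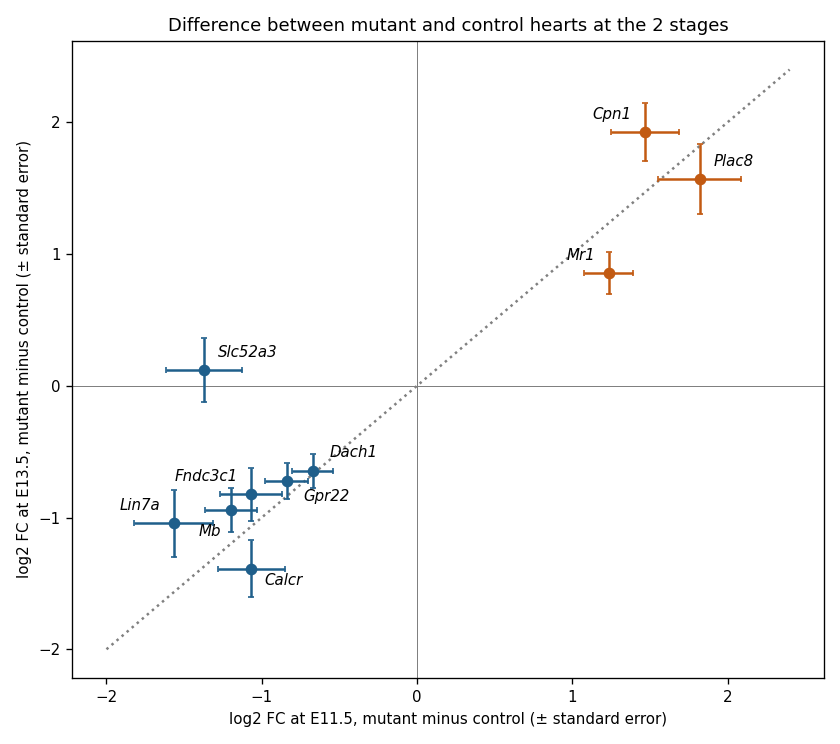
Log2 difference of mutant minus control hearts at E11.5 (x axis) and E13.5 (y axis) for the 10 genes, with standard errors from limma (4 hearts a group); the dotted line marks equal differences. Slc52a3 sits at -1.37 and 0.12, away from the line, and the other 9 genes have the same sign at both stages.

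The 10 genes did not fall in line heart by heart. Relative to the control mean of its stage, no mutant heart at E11.5 was the most extreme for all genes. Replicate 4 at E11.5 was highest of its group for 4 genes and lowest for 2, and replicate 3 was highest for 3 and lowest for 3. At E13.5 mutant replicates 2 and 3 were each lowest for 5 genes and highest for 2, while replicates 1 and 4 were lowest for none. Deviations from the group mean ran from -0.76 to 0.83 log2 units in E11.5 mutants and from -0.65 to 0.76 in E13.5 mutants.

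**Figure D3:**
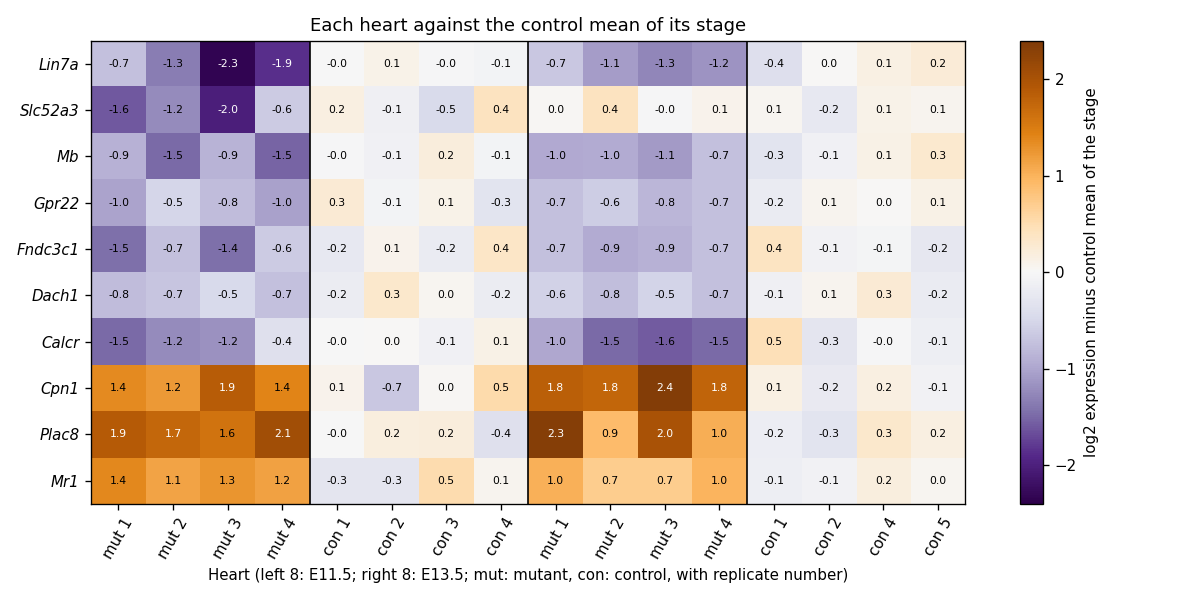
Log2 expression of the 10 genes (rows) in each heart (columns) minus the control mean of the same stage, with colour and printed number giving the difference. Lower genes are purple and higher genes orange in mutant columns of both stages, except Slc52a3, which is near 0 at E13.5.

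A comparison that the choice did not use is that between the stages, taken as the mean of both genotypes at E13.5 minus that at E11.5. Of the 10 genes, 3 were higher at E13.5 (*Mb*, *Mr1* and *Gpr22*) and 4 were lower (*Plac8*, *Slc52a3*, *Fndc3c1* and *Calcr*) at a log2 difference over 0.5 in size and adjusted p under 0.05 in limma, while *Cpn1*, *Lin7a* and *Dach1* did not pass. Stage differences were common on these arrays, with 16.2% of all probe sets higher and 17.1% lower. The median size of the log2 difference was 0.66 for the 10 genes and 0.35 over all probe sets. The arrays of the 2 stages differed in spread, with an SD of 2.18 to 2.26 at E11.5 and 2.38 to 2.42 at E13.5, and stage cannot be told apart from a separate normalisation of each stage. Values after quantile normalisation of the 16 arrays together are therefore given beside those as deposited.

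*Mb* rose the most, by 1.66 (SE 0.12, adjusted p = 3.74e-08) or 3.15-fold, and by 1.43 after quantile normalisation. This rise was 1.53 (SE 0.17) in controls and 1.78 (SE 0.17) in mutants on the log2 scale. *Mr1* rose by 1.16 (SE 0.11, adjusted p = 6.57e-07) or 2.24-fold, and by 0.98 after quantile normalisation. *Gpr22* rose by 0.66 (SE 0.10, adjusted p = 4.62e-05), by 0.52 after quantile normalisation and by 0.49 after cyclic loess, where it no longer passed the limit on the log2 difference. *Mb* and *Gpr22* belong to the genes lower in mutants, and *Mr1* to those higher.

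*Plac8* fell by 1.33 on the log2 scale between the stages (SE 0.19, adjusted p = 2.92e-05), to a level 2.51-fold lower, and the fall was of -1.20 (SE 0.27) in controls and -1.46 (SE 0.27) in mutants. *Slc52a3* fell by 0.89 (SE 0.17, adjusted p = 0.000448), but the genotypes were unlike, with -1.63 (SE 0.24) in controls and -0.14 (SE 0.24) in mutants. That contrast of the genotypes repeats the difference the gene was chosen on. The X-linked gene *Fndc3c1* fell by 0.67 (SE 0.14, adjusted p = 0.000879), and *Calcr* by 0.61 (SE 0.15, adjusted p = 0.00325). *Calcr* stayed near the limit on the log2 difference: it fell by 0.51 after quantile normalisation, and by 0.49 without mutant replicate 4 of E11.5, when the limit was not met. In mutant hearts fitted alone, *Slc52a3* (adjusted p = 0.701) and *Fndc3c1* (adjusted p = 0.0652) did not pass. *Dach1* had a log2 difference of -0.23 (SE 0.09, adjusted p = 0.0411), which is under that limit. *Cpn1* gave 0.23 (SE 0.15, adjusted p = 0.204) and *Lin7a* -0.02 (SE 0.18, adjusted p = 0.928), and the sign of *Lin7a* turned to 0.029 and 0.021 when arrays were centred on the median, without or with scaling to a common SD.

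**Figure D4:**
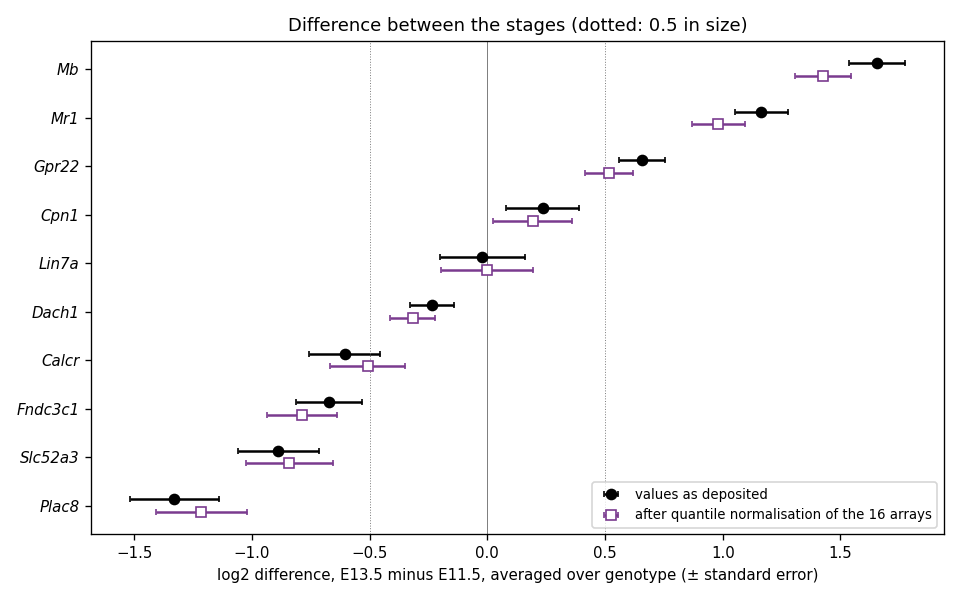
Log2 difference of E13.5 minus E11.5 averaged over both genotypes (x axis, with standard error) for the 10 genes, as deposited (filled circles) and after quantile normalisation of all 16 arrays (open squares). Values run from 1.66 for Mb to -1.33 for Plac8, and both scalings keep each called gene on its side of the dotted lines at 0.5.

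Genes related to the 10 genes, as partners of their products, members of the same pathway or relatives in sequence or kind, were examined from 9 lists holding 112 genes, of which 99 were measured and none was itself in the group. Of these, 1 was lower and none higher at E11.5 by the same thresholds and none passed at E13.5. Without adjustment, 12 passed p under 0.05 in limma at E11.5 (6 lower and 6 higher, 12.1% against 9.49% of all probe sets) and 6 at E13.5 (4 lower and 2 higher, 6.06% against 3.43%). The gene that passed was *Cox8b*, a cytochrome c oxidase subunit of heart and skeletal muscle listed beside *Mb*, which was lower in mutants at E11.5 by a log2 difference of -1.17 (SE 0.21, adjusted p = 0.0323) and gave -0.51 at E13.5 (adjusted p = 1.00). The paper already lists *Cox8b* among its genes lower at E11.5 from these same arrays, and the lists were drawn up with earlier results known. Its place here is therefore a description and no independent result. Embryonic globin *Hbb-bh1* gave -0.03 and 0.84 at the 2 stages (SE 0.31 for both) and did not pass. The embryonic globins *Hbb-y* and *Hba-x* of the same list gave 0.04 and 0.11 at E13.5.

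No other gene in the lists of the lower genes passed. The LIN7 partner *Dlg1*, a scaffold of the same kind, gave a log2 difference of -0.23 at E11.5 (adjusted p = 0.470), and *Mpp3* gave -0.40 at E13.5. For the calcitonin family, *Adm*, the vasodilator peptide adrenomedullin, stood at 1.21 at E11.5 (SE 0.32, adjusted p = 0.172) and the receptor partner *Ramp1* at -0.40 (adjusted p = 0.355). Among nuclear partners of DACH1, the SKI family members *Skil* and *Ski* gave 0.29 and 0.23 at E11.5. The flavin list had *Acp5*, a phosphatase, at -0.81 at E11.5 (SE 0.35, adjusted p = 0.476), a gene also known from macrophages and osteoclasts, and the folate and flavin carrier *Slc25a32* at -0.15 at E13.5. Of the orphan receptors, *Gpr85* gave -0.54 at E11.5 and *Gpr37* -0.34 at E13.5, and of the *Fndc3c1* relatives, *Fndc1* and *Fndc3b* gave 0.34 and 0.32 at E11.5. All of these are log2 differences of mutant minus control.

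No gene in the lists of the higher genes passed either. Among carboxypeptidases, *Cpa4* gave a log2 difference of -1.03 at E13.5 (SE 0.29, adjusted p = 0.618), the opposite sign to *Cpn1*, and *Cpe*, which processes peptide hormones, gave 0.48 at E11.5 (adjusted p = 0.234). Of the 14 measured genes of MHC class I folding and loading, *H2-K1* gave 0.75 at E13.5 (SE 0.22, adjusted p = 0.732), and the peptidase *Erap1* gave -0.27. The median log2 difference of that list was -0.02 at E11.5 and under 0.01 in size at E13.5, while *Mr1* itself stood at 1.23 and 0.86.

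**Figure D5:**
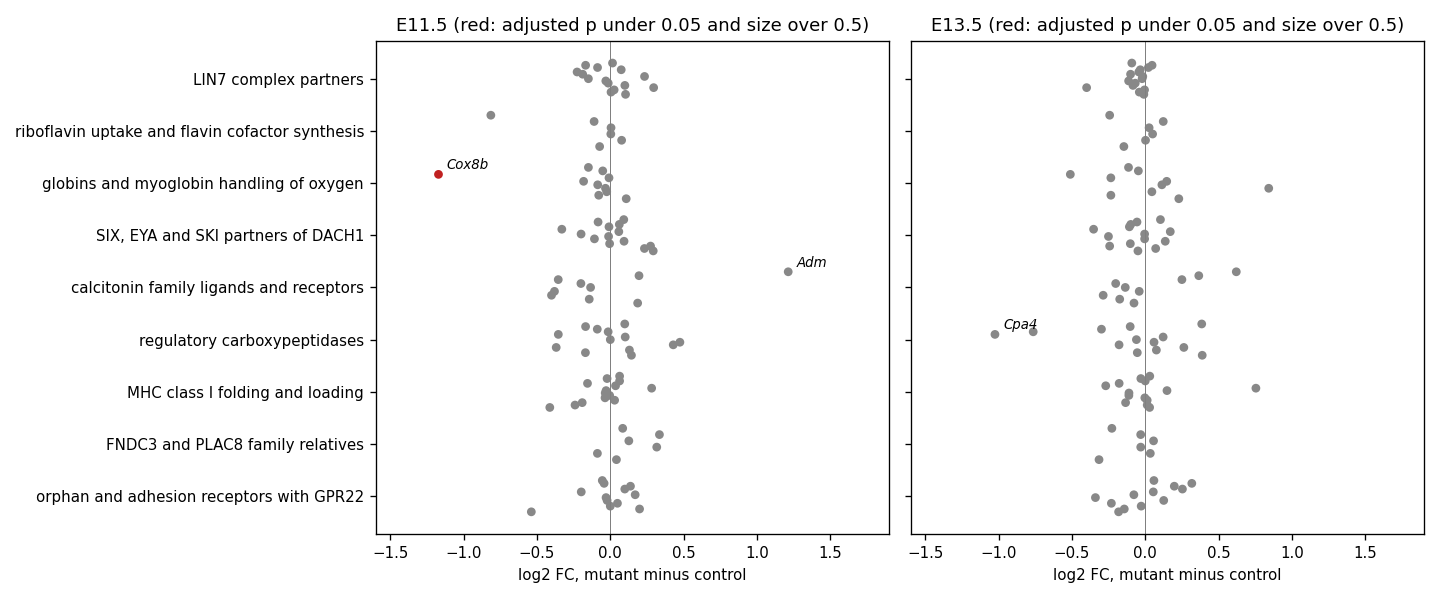
Log2 difference of mutant minus control hearts (x axis) for 99 related genes in 9 lists (y axis) at E11.5 (left) and E13.5 (right). Each point is 1 gene and red marks those past the thresholds. Cox8b at E11.5 is the sole red point, and genes beyond 1 log2 unit are named.

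The 10 genes lie on 10 different chromosomes in the RefSeq annotation of GRCm38: *Mr1* on 1, *Slc52a3* on 2, *Plac8* on 5, *Calcr* on 6, *Lin7a* on 10, *Gpr22* on 12, *Dach1* on 14, *Mb* on 15, *Cpn1* on 19 and *Fndc3c1* on X. Of the 20 protein-coding genes next to them, none passed the thresholds in limma at either stage, and at an unadjusted p under 0.05 there was 1 at E11.5 (*Acss3*, next to *Lin7a*, at -0.39) and 0 at E13.5. The neighbours gave log2 differences from -0.39 to 0.40 at the earlier stage and from -0.18 to 0.27 at the later. None of the 10 genes was below 0.67 in size at E11.5, but they were chosen by this difference and the neighbours were not.

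Over the 16 hearts, the gene nearest in pattern to *Fndc3c1* and to *Calcr* was *Chd7* itself. Likeness was measured as the root mean square difference between 2 log2 profiles, each centred on its own mean, and was 0.20 for *Fndc3c1* and 0.28 for *Calcr*, against a root mean square of 0.64 and 0.74 for the 2 genes' own profiles. *Chd7*, on its probe set with the highest mean, gave log2 differences of -1.29 and -1.08 between genotypes and -0.59 between stages. The paper reports a larger loss of *Chd7* at both stages, and likeness to other *Chd7* probe sets is not given here. Next came *Hapln1*, a linker of cartilage and cushion matrix, for *Fndc3c1* (0.22) and *Dthd1* for *Calcr* (0.34). This is a description over the hearts on which the genes were chosen, and the group means shape it.

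For *Gpr22* the nearest were *Clec4g* (0.16) and the endothelin receptor *Ednrb* (0.20), against 0.54 for its own profile. *Mb* was nearest to *Cd34*, a marker of endothelial and blood progenitor cells (0.34), and to *Cox8b* (0.35), against 1.01 of its own. *Lin7a* came closest to *Sema3a*, a repellent of nerves (0.42), and *Angpt1*, a ligand of the endothelial receptor TEK (0.44), against 0.75. *Dach1* was followed by *Zfp804a* and *I830077J02Rik* (0.19 and 0.20, against 0.38), and *Slc52a3* by *Vmn1r26* and the haem synthesis enzyme *Cpox* (both 0.36, against 0.73).

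Of the genes higher in mutants, *Mr1* was nearest to *Camk1d* (0.31) and to the epoxide hydrolase *Ephx2* (0.32), against 0.81 for its own profile. *Cpn1* was nearest to *Wfdc17*, a secreted protein of myeloid cells (0.47), and to the complement factor *Cfi* (0.51), against 0.91, and *Wfdc17* gave log2 differences of 0.60 at E11.5 and 1.61 at E13.5. For *Plac8* the values were 0.63 for *Kcnip1* and 0.71 for *1810037I17Rik*, against 1.14, so that no gene matched it closely.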

How the data were processed

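RNA of 16 whole hearts was measured on Affymetrix Mouse Gene 1.0 ST arrays. The deposited log2 values were made by the authors with RMA in the affy package; versions, and whether both stages were normalised in 1 run, are not given in the sources used here. They were used unchanged. Probe sets were named through the platform annotation and a RefSeq gene table of GRCm38. Where several probe sets named a gene alone, that with the highest mean over the 16 arrays was used. The 16 arrays were fitted in limma 3.58.1 (R 4.3.3) as 4 group means, which left 12 residual degrees of freedom, with Benjamini-Hochberg adjustment over 34760 probe sets; the fit was tested on simulated data. The 10 genes and all lists were chosen with earlier results of these data known. The named genes were all 10, the called genes of each partner list or otherwise the 2 with the smallest p, and the 2 genes nearest in pattern to each of the 10. Other genes (*Cog5*, *Fnd3c2*, *Mir653*, *Mir489*, *Hbb-bh1*, *Hbb-y*, *Hba-x*, *Acss3*) were named after their values were seen. The alternatives were other scalings, priors and filters, array weights, probe-set rules, a replicate block, a Y-linked covariate, each heart left out in turn and, added after seeing the data, leaving out 3 hearts that stand apart. The number of arrays limits the precision. Array batches and dates were not analysed here. Plots were made in Python 3.11.15 with matplotlib 3.10.9.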

Additional observations from a re-analysis of the deposited data

Results flagged for a closer look

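A sample far from the others of its group was found for 2 of the 10 genes, where 40 groups of 4 hearts were examined and chance picks out about 1 in 20. *Slc52a3* in control replicate 2 at E13.5 was at 6.28, below 6.57 to 6.62 in the other controls. *Cpn1* in mutant replicate 3 at E13.5 was at 9.17, above 8.58 to 8.65 in the other mutants. That heart also had the highest neutrophil, macrophage, epicardial and erythroid sums of its group.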

How the results depend on the processing

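The signs of the differences between mutant and control hearts did not change for any of the 10 genes under any alternative run, but the number of genes past the thresholds did. At E11.5, with 6 lower and 3 higher, there were 7 lower, with *Calcr* gained, under a trended and robust prior, quantile normalisation, scaling to 1 SD, leaving out dim probe sets, probe sets naming 1 gene only or their median for a gene, 2 higher without dim probe sets, 0 lower and 1 higher when each stage was fitted alone, 1 lower and 2 higher with array weights, 1 lower with the Y-linked covariate, and 3 lower and 1 higher without the 3 hearts that stand apart, while leaving out each heart in turn gave 2 to 6 lower. At E13.5, with 1 lower and 1 higher, there were 0 lower with each stage alone, quantile normalisation, scaling to 1 SD or the Y-linked covariate, 3 lower and 3 higher with a trended and robust prior or with probe sets naming 1 gene only, 5 and 3 with array weights, 3 and 2 without dim probe sets, 2 and 3 with probe sets of a gene reduced to their median, and 2 lower without the 3 hearts. Leaving out each heart in turn gave 0 to 2 lower and 1 to 2 higher. With the replicate number as a block there were 3 lower at E11.5 and 0 lower at E13.5. Hearts of the same number did not deviate together (r from -0.06 to 0.01), and those of unlike number gave r from -0.19 to 0.20. No pairing by number was seen, but so few hearts cannot exclude it. Without those 3 hearts the E11.5 log2 difference of *Lin7a* moved from -1.57 to -1.04 and that of *Calcr* from -1.07 to -1.36. Of the stage differences, with 4 lower and 3 higher, 2 were lower in mutant hearts alone, where *Slc52a3* gave -0.14 and *Fndc3c1* -0.55 (adjusted p = 0.0652). *Calcr* gave -0.45 in control hearts alone. *Lin7a*, at -0.02 and not called, turned to 0.24 in mutants alone, to 0.029 and 0.021 with arrays centred on the median without and with scaling, and ranged from -0.15 to 0.12 when each heart was left out. Dim signal limits *Plac8*, the only 1 of the 10 genes whose mean over all hearts, 6.32, was below percentile 40 of all probe sets. A mean over all hearts can hide dim groups. *Calcr* had a mean of 5.66 in E13.5 mutants, and *Lin7a* was at 5.61 and 6.08 in E11.5 mutant replicates 3 and 4, all below 6.32. The E13.5 means of *Slc52a3*, 6.51 in controls and 6.63 in mutants, lay little above it. The part of dim signal in the differences of these genes was not tested. The cause of the shifts between processing settings was not tested.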
